A study of Mus musculus with 24 samples.

Results

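The genes described here are 10 transcripts that encode feedback inhibitors of MAPK signalling, namely the dual-specificity phosphatases Dusp1, Dusp4, Dusp5, Dusp6 and Dusp8, the Sprouty genes Spry1, Spry2 and Spry4, and the Sprouty-related genes Spred1 and Spred2. They were chosen by symbol, and all 10 were present among the 14074 genes of the normalized count table. Bulk poly(A) RNA-seq was available for the PFC (prefrontal cortex) of 24 male C57BL/6 mice, 1 library per mouse, in 6 groups of 4. The study asked how chronic social stress changes the transcriptional response to the glucocorticoid receptor agonist dexamethasone (DEX) in animals that cope with stress in different ways. Control mice were not stressed, whereas the PS group (passive coping, dep1 in the labels) and the AS group (active coping, dep2) had lived through 30 days of social stress. In each phenotype, 4 mice were given saline and 4 were given DEX at 2 mg/kg, and tissue was taken 6 h later. PS and AS are clusters of behaviour during a confrontation test and were not assigned by the experimenter.

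MAPK cascades carry signals from growth factor, neurotrophin and synaptic receptors through Ras, Raf and MEK to ERK, and through parallel chains to p38 and JNK. Active ERK induces many of its own inhibitors, so that transcripts of Dusp, Sprouty and Spred genes are widely read as markers of recent pathway activity. In cortical neurons the same pathway drives immediate early genes such as Arc and Junb. Dusp1 is also known as a target of glucocorticoids in many tissues.

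The libraries differed in depth and in tissue content. The smallest library had 21121869 reads on genes, the median one 24420129 and the largest 59439645, and the deepest library came from PS saline mouse 28. The AS groups had the highest median depths, 34242531 reads for saline and 37876626 for DEX, although single AS libraries went down to 23481722 reads. The scarcest of the 10 transcripts, Spry1, still had at least 128 reads in every library. Olfactory bulb markers were unevenly spread: of 6 markers 5 were in the table, and their summed normalized count was 5070 in control saline mouse 117, 4011 in PS DEX mouse 34, 1819 in AS saline mouse 14 and 1818 in PS saline mouse 2. In the other 20 libraries this sum lay between 115 and 994. Cdhr1 was the most abundant of these markers, with a mean of 386 normalized counts, and none of the 5 was at 0 in every library. These 4 libraries stand apart from the others, so the main results are given with and without them. The cortex label was checked on Camk2a and Slc17a7, which mark pyramidal neurons and averaged 17507 and 8574 normalized counts per kilobase of exon.

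Transcripts known to follow the glucocorticoid receptor checked the DEX labels. Fkbp5, which encodes a co-chaperone of the receptor, rose in all 3 phenotypes. With saline it stood at 796 ± 61.6 normalized counts in control, 881 ± 91.0 in PS and 890 ± 139 in AS mice (mean ± SD, n = 4 in each group). With DEX these became 3820 ± 316, 3531 ± 276 and 3355 ± 521. Tsc22d3 (GILZ) and Sgk1 also rose in all 3, with log2 fold changes in PS of 1.11 and 0.79. The receptor gene Nr3c1 fell by 0.50 on the log2 scale in control and by 0.38 in PS. In AS its log2 fold change of -0.28 missed the threshold (limma, Benjamini-Hochberg adjusted p = 0.105). By DESeq2 the fall of Nr3c1 in AS passed, and by edgeR it did not. Here and below, a gene is said to have risen or fallen when its adjusted p was under 0.1 over all 14074 genes, and a fold change is on the scale of log2(normalized count + 1).

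The 10 transcripts differed widely in abundance. Per kilobase of exon, Dusp8, a phosphatase that acts mainly on JNK and p38, was the highest at 1054 normalized counts, above 91.8% of all genes. Spred1 followed at 786, Spry2 at 610, Spred2 at 587 and Dusp6, the cytoplasmic ERK phosphatase, at 501. The other 5 were scarcer: the nuclear phosphatases Dusp1, Dusp5 and Dusp4 had 155, 111 and 73.7 normalized counts per kilobase, and Spry4 and Spry1 had 74.7 and 58.1. The scarcer phosphatases varied more between mice of a group. The median coefficient of variation within groups was 17.3% for Dusp5 and 18.5% for Dusp4, against 5.80% for Spred2 and 6.32% for Spry2.

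**Figure D1:**
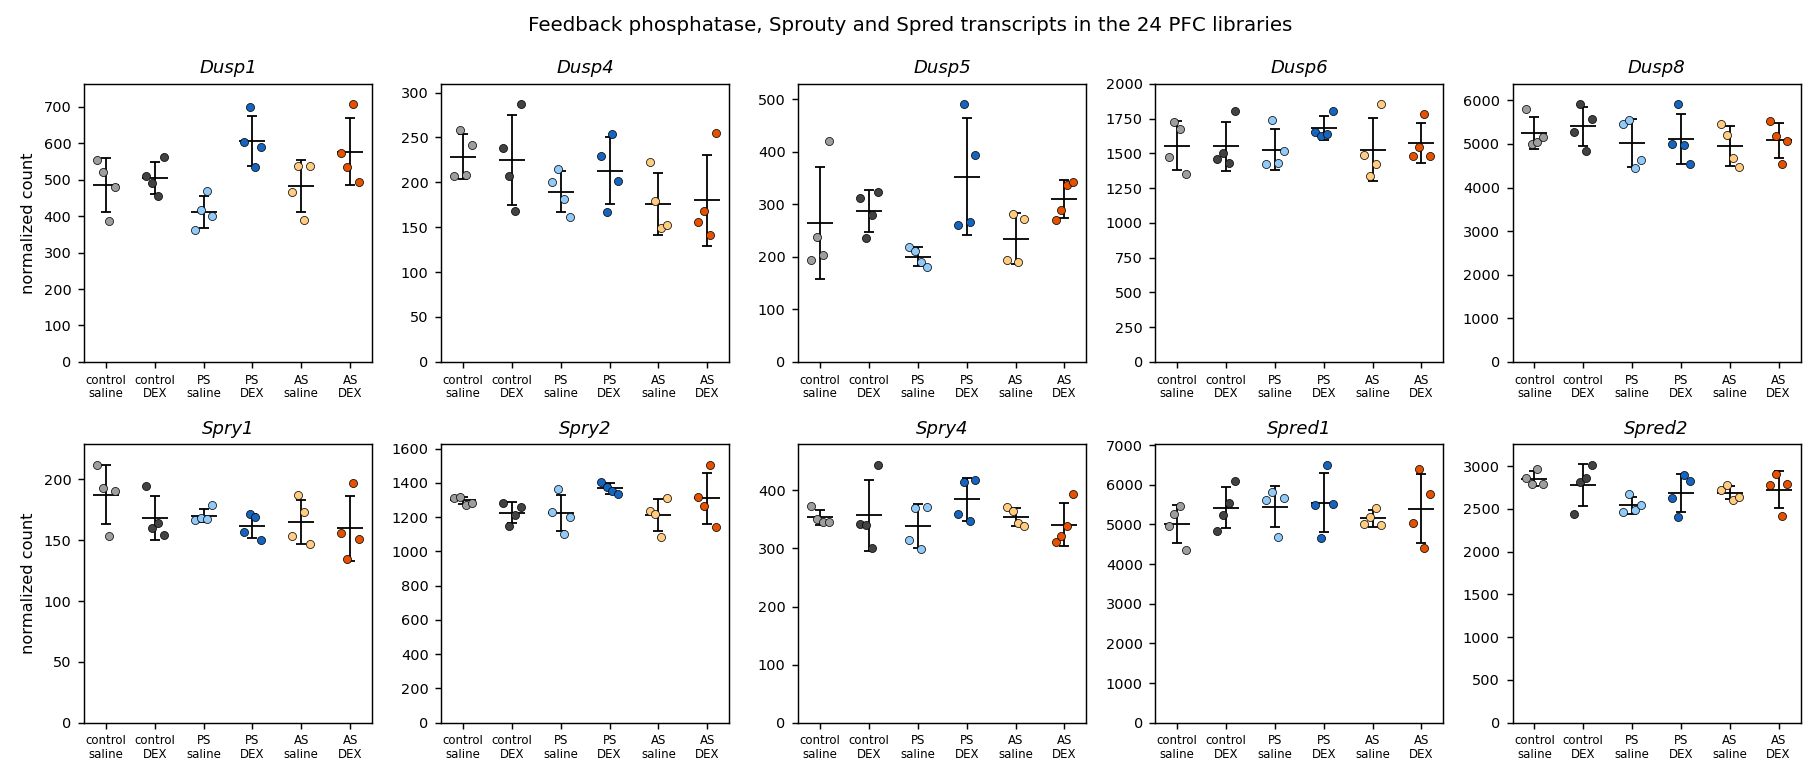
Normalized counts (vertical axes, from 0) of the 10 transcripts in each of the 24 libraries, by phenotype and treatment. Points are single mice, and the bars give mean ± SD over 4 mice. Dusp1 and Dusp5 lie higher in all 4 PS DEX mice than in all 4 PS saline mice, while the other 8 transcripts overlap between saline and DEX in each phenotype.

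Of the 10 transcripts, Dusp1 and Dusp5 changed with DEX, and both rose. Dusp1 lies on chromosome 17 (GRCm38, 26505590 to 26562128, minus strand) and encodes a nuclear phosphatase that inactivates p38, JNK and ERK. Dusp5 lies on chromosome 19 (53529109 to 53542431, plus strand) and encodes a nuclear phosphatase selective for ERK. Their promoters are shown because they are the 2 members that moved and because each holds a motif tied to activity-dependent transcription. The sequences run from 250 bases before to 50 bases after the RefSeq start site (GRCm38.p6, 5′ to 3′ on the strand of the gene). Capitals mark the cyclic AMP response element TGACGTCA in the promoter of Dusp1 (chr17:26508423-26508722, minus strand) and 2 adjacent CArG boxes, the motif of serum response factor, in that of Dusp5 (chr19:53528895-53529194, plus strand).
Dusp1: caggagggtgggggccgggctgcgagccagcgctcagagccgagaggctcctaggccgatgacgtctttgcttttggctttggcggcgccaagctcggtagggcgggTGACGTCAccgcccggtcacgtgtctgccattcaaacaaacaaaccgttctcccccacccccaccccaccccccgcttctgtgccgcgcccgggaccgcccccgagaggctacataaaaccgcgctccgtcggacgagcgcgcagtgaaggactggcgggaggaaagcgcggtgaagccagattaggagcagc
Dusp5: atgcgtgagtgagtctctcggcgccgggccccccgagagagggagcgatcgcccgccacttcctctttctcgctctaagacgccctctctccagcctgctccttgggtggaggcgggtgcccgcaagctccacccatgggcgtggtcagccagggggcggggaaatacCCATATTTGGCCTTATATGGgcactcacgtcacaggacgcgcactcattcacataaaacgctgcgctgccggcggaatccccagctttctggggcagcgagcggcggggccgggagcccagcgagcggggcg

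RefSeq promoters were matched for 8 of the 10 genes, all but Dusp4 and Spry4. Of the 32851 promoters in the same table, 1.79% hold TGACGTCA on either strand and 1.63% hold a CArG box. Among the 8, TGACGTCA was found in Dusp1 and, 2 times, in Dusp8, which was not called with DEX in any phenotype. The CArG box was found in Dusp5 alone. The full glucocorticoid response element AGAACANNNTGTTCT was found in none of the 8 windows and in 0.00913% of all promoters. The shorter site AGAACA, one arm of that element, held by 19.0% of all promoters on either strand, was also in none of the 8. The AP-1 motif TGANTCA, held by 7.81%, was in none of them either. These are matches of letters in short windows, and factor binding was not measured. The part of any of these motifs in the changes with DEX was not tested.

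In PS animals Dusp1 stood at 363, 418, 468 and 399 normalized counts in the saline mice 2, 28, 62 and 68, and at 605, 700, 534 and 591 in the DEX mice 6, 34, 52 and 56. All 4 DEX values lay above all 4 saline values. In AS animals it stood at 468, 537, 389 and 539 in the saline mice 8, 14, 40 and 44, and at 574, 535, 708 and 493 in the DEX mice 38, 42, 60 and 72, with overlap. In control animals the saline mice 106, 107, 109 and 117 had 553, 523, 386 and 481, and the DEX mice 101, 108, 112 and 122 had 509, 493, 456 and 563. The control groups covered nearly the same range. The lowest group mean of Dusp1 was thus that of PS saline (412 ± 43.7) and the highest that of PS DEX (607 ± 68.7), with AS DEX next (578 ± 92.9). In this order each group mean differed from its neighbour by less than the larger SD of the pair.

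Dusp1 rose in PS animals by 0.56 on the log2 scale (SE 0.126, fold 1.47, limma, Benjamini-Hochberg adjusted p = 0.00992). The change was 0.26 in AS (adjusted p = 0.285) and 0.07 in control animals (adjusted p = 0.884), neither past the threshold. Averaged over the 3 phenotypes, DEX raised Dusp1 by 0.29 (adjusted p = 0.00729). Without the 4 libraries high in olfactory bulb markers, the value in PS was 0.43 with an adjusted p of 0.171 by limma, so that the call was lost, whereas the average over phenotypes was 0.27 with an adjusted p of 0.0328. Those 4 include the highest PS DEX and the lowest PS saline library of Dusp1.

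Dusp5 followed the same order with more spread. In PS animals it stood at 219, 211, 191 and 180 normalized counts in the saline mice and at 261, 490, 266 and 394 in the DEX mice, in the mouse order given for Dusp1. All 4 DEX values again lay above the saline values, with mice 34 and 56 well above the other pair. In AS animals the saline values were 195, 282, 191 and 272 and the DEX values 271, 288, 337 and 343. The AS ranges touched, since the lowest DEX value was just under the highest saline values. In control animals the saline values were 194, 239, 204 and 420 and the DEX values 312, 235, 279 and 324. The 420 of control mouse 117 was the second highest of all 24 values, after the 490 of PS DEX mouse 34, and these are the 2 libraries with the most olfactory bulb marker counts. PS DEX mouse 56, with 394 counts of Dusp5, had an olfactory bulb marker sum of only 165. The part of olfactory bulb tissue in the result was not tested beyond leaving the libraries out.

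Dusp5 rose in PS animals by 0.77 (SE 0.209, fold 1.70, limma, Benjamini-Hochberg adjusted p = 0.0382). Its change was 0.41 in AS (adjusted p = 0.301) and 0.18 in control animals (adjusted p = 0.770). Averaged over phenotypes it rose by 0.45 (adjusted p = 0.0123). Leaving out the 4 libraries high in olfactory bulb markers gave 0.64 in PS (limma adjusted p = 0.0498), 0.51 in AS (adjusted p = 0.0633), 0.43 in control animals (adjusted p = 0.158) and 0.53 on average (adjusted p = 0.000513). Dusp5 was then called in AS as well. The call in PS was lost when PS DEX mouse 34 (0.59, adjusted p = 0.166), PS DEX mouse 56 (0.70, adjusted p = 0.108) or PS saline mouse 68 (0.72, adjusted p = 0.102) was left out, and the call on average held without each single library.

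**Figure D2:**
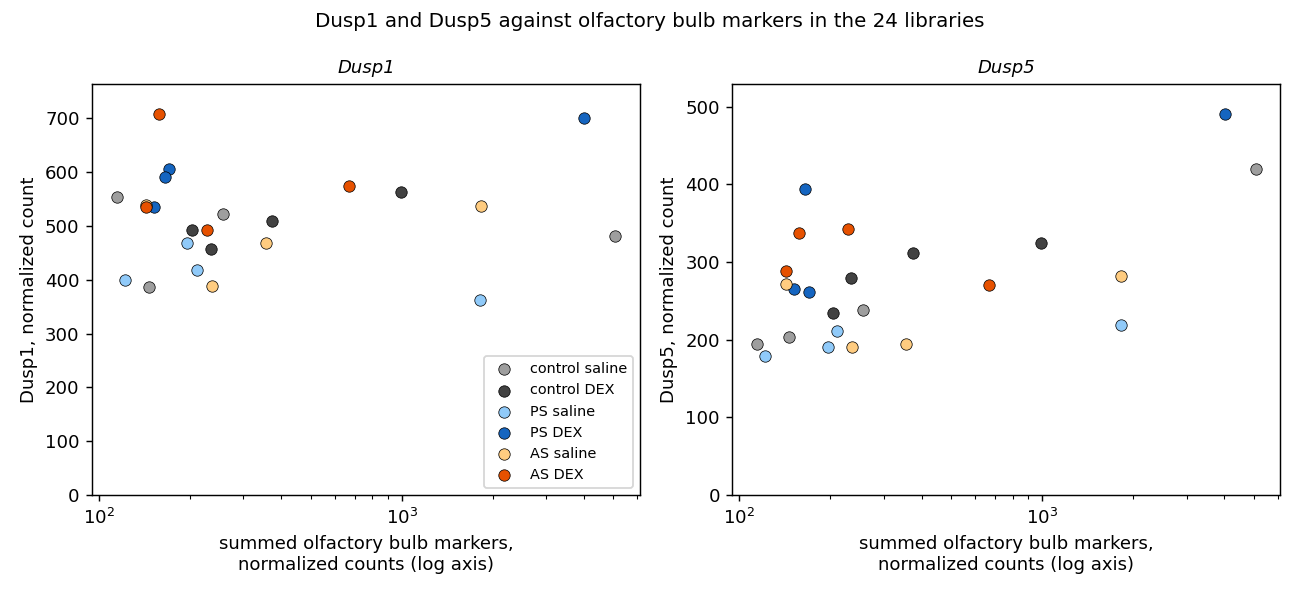
Normalized counts of Dusp1 (left) and Dusp5 (right) against the summed normalized counts of 5 olfactory bulb markers (log axis) in the 24 libraries, coloured by group. The 2 libraries with marker sums of 4011 and 5070 hold the 2 highest Dusp5 values, 490 and 420, while PS DEX mouse 56 reaches 394 at a marker sum of 165.

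The 2 calls were read against all genes. DEX changed 5.36% of the 14074 genes in PS animals and raised 2.74%, against 2 of the 10 feedback genes, both raised. On average over phenotypes it changed 15.5% and raised 7.46%, again against 2 of 10. In control animals 6.49% of genes were called and in AS animals 8.77%, and in both 0 of the 10 feedback genes were called by limma, edgeR or DESeq2, with 0 at an unadjusted limma p under 0.05, a level passed by 15.3% of all genes in control and 18.2% in AS animals. The share of all genes called in AS animals was 4.78% without AS saline mouse 8 and 11.5% by DESeq2. The saline and DEX groups did not overlap for 2 of the 10 in PS animals, against 10.1% of all genes. The median log2 fold change of the 10 was 0.15 in PS, 0.05 in AS and 0.00 in control animals, against a median of 0.00 over all genes in PS and in AS and of -0.01 in control. In whole tissue, a lower or higher count can come from fewer or more cells of a type or from RNA per cell, and these cannot be told apart here.

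Whether DEX acted differently between phenotypes was tested on the differences of the responses. The rise of Dusp1 was larger in PS than in control animals by 0.49 (SE 0.178), with an unadjusted limma p under 0.05 that did not pass over all genes (Benjamini-Hochberg adjusted p = 0.379). For Dusp5 the same difference was 0.58 (SE 0.296, adjusted p = 0.524), and it was 0.20 without the 4 libraries high in olfactory bulb markers (limma adjusted p = 0.958). The responses in AS differed from those in control animals by 0.19 for Dusp1 and 0.23 for Dusp5, and from those in PS by -0.30 and -0.35, with adjusted p of at least 0.703 in limma. Without the 4 libraries high in olfactory bulb markers the differences from PS were -0.12 and -0.13, and that of Dusp5 from control was 0.08. Leaving out 1 library brought the Dusp5 differences as far as -0.18 from PS and -0.016 from control. None of the 10 genes was called in these 3 tests by limma, edgeR or DESeq2, and those with an unadjusted limma p under 0.05 were Dusp1 and Spry2 in the test of PS against control. Over all genes, limma called 0% for PS against control, 0.348% for AS against control and 0% for AS against PS. The 0.348%, or 49 genes, ran from 4 genes (without control saline mouse 117, AS saline mouse 8 or 40, or AS DEX mouse 42) to 686 (without AS saline mouse 44) when 1 library was left out. The unadjusted limma p was under 0.05 for 9.98%, 13.5% and 2.44% of genes, edgeR called 0, 77 and 0 genes, and DESeq2 called 23, 439 and 0. A response seen in PS and not past the threshold in control animals is therefore not shown to differ between them.

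**Figure D3:**
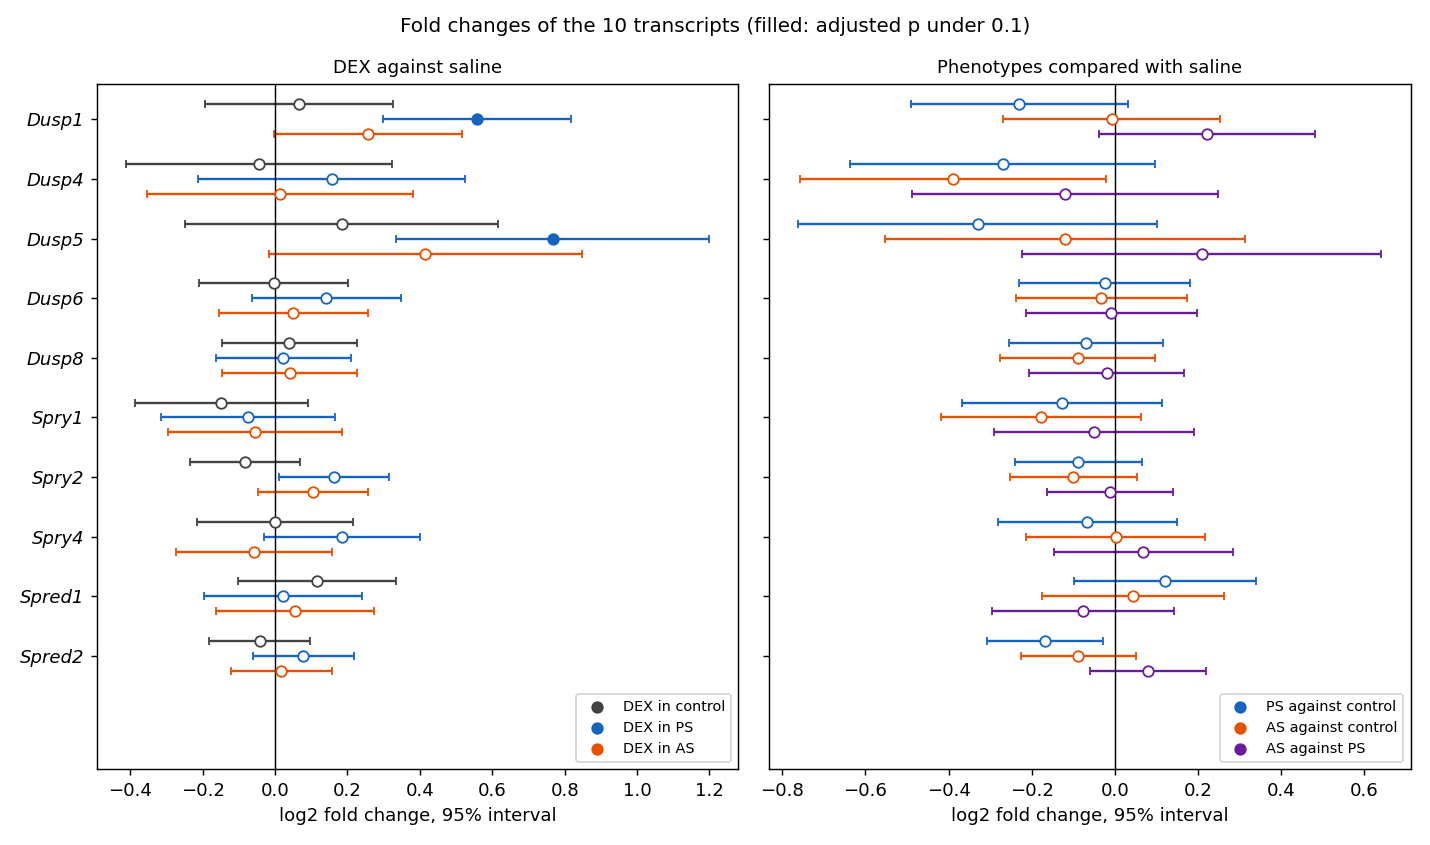
Log2 fold changes of the 10 transcripts with 95% intervals (horizontal axis), for DEX against saline in each phenotype (left) and for the phenotypes compared under saline (right). Filled points mark an adjusted p under 0.1, which only Dusp1 at 0.56 and Dusp5 at 0.77 in PS animals reach.

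The other phosphatases did not pass the test in any comparison. Dusp6, which acts on ERK in the cytoplasm and is a standard readout of FGF signalling, stood at 1426 to 1739 normalized counts in PS saline and 1624 to 1807 in PS DEX, a log2 difference of 0.14 (95% interval -0.06 to 0.35). Its differences in control and AS animals were 0.00 (-0.21 to 0.20) and 0.05 (-0.15 to 0.26). Dusp8 was the steadiest phosphatase, with group means from 4946 to 5403 normalized counts and DEX differences between 0.02 and 0.04. None of the 95% intervals of these 3 Dusp8 differences reached beyond 0.23 in either direction. Dusp4, a nuclear phosphatase induced by ERK, varied from 141 to 287 normalized counts over the 24 libraries. Its DEX difference was 0.16 in PS, 0.01 in AS and -0.04 in control mice, with 95% limits between -0.41 and 0.52. Changes of Dusp4 within those limits were not detectable with this spread.

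Sprouty proteins hold back receptor tyrosine kinase signalling upstream of Raf. Spry2 was 1233, 1363, 1103 and 1201 normalized counts in PS saline mice and 1406, 1376, 1352 and 1336 in PS DEX mice. The DEX mice were tightly grouped (SD 30.4), and 3 of the 4 saline mice lay below all of them. The log2 difference of 0.16 had an unadjusted limma p under 0.05 that did not pass over all genes (adjusted p = 0.314). In control animals Spry2 went the other way without passing (-0.08, adjusted p = 0.682), and in AS the difference was 0.11 (adjusted p = 0.508). Spry4 differed by 0.18 in PS (95% interval -0.03 to 0.40), by 0.00 in control and by -0.06 in AS animals. Spry1 gave a negative value in each phenotype (PS -0.07, AS -0.05, control -0.15), all with intervals that span 0.

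Spred proteins recruit neurofibromin, which switches Ras off. Spred1 ranged from 4347 to 6500 normalized counts over the 24 libraries and differed between DEX and saline by 0.02 in PS, 0.05 in AS and 0.12 in control animals. Spred2 was measured more tightly, and its differences of 0.08 in PS, 0.02 in AS and -0.04 in control animals had intervals no wider than 0.14 to each side. Spred1, Spred2, Dusp6, Dusp8 and Spry1 thus had DEX differences no larger than 0.15 in any phenotype.

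Under saline, the comparison of phenotypes asked what chronic stress alone left behind. Of the 10 transcripts 0 were called in PS against control, in AS against control or in AS against PS by limma, edgeR or DESeq2, and the unadjusted limma p was under 0.05 for 1, 1 and 0 of them, against 13.1%, 11% and 4.77% of all genes. Limma called 1.51%, 0.156% and 0% of all genes in these comparisons, or 213, 22 and 0 genes, while edgeR called 212, 26 and 0 and DESeq2 called 431, 99 and 11. Leaving out 1 library moved the limma count from 57 (without PS saline mouse 2) to 348 (without AS saline mouse 44) for PS against control, and from 12 (without control saline mouse 109 or AS saline mouse 40) to 49 (without control DEX mouse 101) for AS against control. Without the 4 libraries high in olfactory bulb markers, the counts were 30 and 10. In PS, 9 of the 10 had a lower mean than in control animals, with a median log2 difference of -0.11 against 0.00 over all genes. Spred1, at 0.12, was the exception. In AS, 8 of the 10 had a lower mean than in control animals, with a median of -0.09 against 0.00 over all genes. These PS saline libraries are also the baseline of the DEX response in PS, so the lower saline values and the larger DEX differences are not separate observations. PS and AS were compared with the same control saline mice, so the lower values in both are not separate observations either.

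Under saline, Spred2 stood at 2867, 2794, 2969 and 2793 normalized counts in the control saline mice and at 2463, 2678, 2485 and 2542 in the PS saline mice, and each PS value lay below each control value. The groups did not overlap for this 1 of the 10, a share close to the 11.3% of all genes. The log2 difference was -0.17 (SE 0.0674, limma adjusted p = 0.276). In AS saline mice Spred2 was 2721, 2777, 2609 and 2643, also just below all values of the same 4 control mice. That was the single member without overlap in AS against control, where 6.51% of all genes did not overlap, and the difference was -0.09 (limma adjusted p = 0.633). Dusp4 was lower in AS saline (223, 179, 149 and 152) than in control saline (207, 258, 208 and 242), a log2 difference of -0.39 with some overlap (limma adjusted p = 0.430). Spred2 in PS and Dusp4 in AS are the members with an unadjusted limma p under 0.05. Dusp1 and Dusp5 differed between PS and control under saline by -0.23 and -0.33, with 95% intervals of -0.49 to 0.03 and -0.76 to 0.10. Without control saline mouse 117 the Dusp5 difference was -0.08, and it was -0.13 without the 4 libraries high in olfactory bulb markers.

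The rest of the pathway was read from lists of genes grouped by role. Among 12 tested relatives of the 10 genes (other phosphatases of the Dusp family, Spry3 and Spred3), 0 were called with DEX within each phenotype by limma. At an unadjusted limma p under 0.05 there were 2 in PS, 1 in AS and 3 in control mice, while edgeR called 1, 1 and 0 and DESeq2 called 1, 1 and 2. In the mean response 0 rose and 3 fell, namely Dusp14 (-0.20), Dusp26 (-0.12) and Dusp22 (-0.09), all small atypical phosphatases. Dusp3 and Dusp14 were the most abundant of these per kilobase, at 1246 and 991 normalized counts. The 36 genes of the Ras, Raf and ERK cascade gave 2 that rose and 4 that fell in PS animals, 2 and 4 in AS, and 2 and 1 in control animals. Ksr1, the scaffold that joins Raf, MEK and ERK, rose by 0.75 in PS (limma, Benjamini-Hochberg adjusted p = 1.50e-05), by 0.68 in AS and by 0.40 in control animals. Ksr1 was also the only gene of the cascade that differed under saline, lower in PS than in control by -0.37 (limma adjusted p = 0.0640). Rps6ka5 (MSK1), a nuclear kinase that phosphorylates CREB, rose by 0.45 in PS. The adaptor Gab1 fell by 0.39, Mapk7 (ERK5) fell by 0.33 and the ribosomal S6 kinase Rps6ka1 fell by 0.29. Without the 4 libraries high in olfactory bulb markers, 2 of the 36 rose in PS and 0 fell, with 3 negative values at an unadjusted limma p under 0.05. Map2k1 (MEK1), at 2140 normalized counts per kilobase, was not called in PS.

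Upstream, 32 receptors and ligands gave 6 that rose and 3 that fell in control animals, 2 and 2 in PS, and 3 and 3 in AS. Fgfr3, an FGF receptor of astrocytes, rose by 0.41 in PS and Igf1r, the IGF receptor, rose by 0.30. Fgfr2 fell by 0.69 and the neurotrophin Bdnf fell by 0.49. In the mean response Fgf2 rose by 0.41 and the receptor Met fell by 0.45. Fgf13, an intracellular FGF homologue, and Ntrk2, the receptor of Bdnf, had the highest levels per kilobase, 1021 and 944 normalized counts. The 26 genes of the p38 and JNK cascades gave 1 call in PS animals, Map3k6, an ASK-family kinase, which rose by 1.56 there, by 1.44 in control and by 0.97 in AS. Mapkapk2, a kinase activated by p38, fell by 0.16 in the mean response. The scaffold genes Mapk8ip1 and Mapk8ip2 led this list per kilobase, with 2140 and 1662 normalized counts.

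Of 21 other inhibitors of Ras and ERK, 1 rose and 1 fell in PS animals, 2 and 3 in AS, and 0 and 1 in control animals. Trib1, a pseudokinase that binds MEK1, rose by 0.46 in PS (limma, Benjamini-Hochberg adjusted p = 0.00238) and was 0.45 without the 4 libraries high in olfactory bulb markers (adjusted p = 0.0267). Trib1 also rose in AS, by 0.34 (limma adjusted p = 0.0213), and was 0.39 there without the 4 libraries (adjusted p = 0.0270). In control animals it was 0.09 (adjusted p = 0.744). The Ras GTPase-activating protein Rasa3 fell by 0.33 in PS. In the mean response 4 rose, with Rasal2 at 0.37, Trib1 at 0.30 and Cblb at 0.15 the largest, and 3 fell, Rasa3 by 0.42, Rasa2 by 0.27 and Pea15a by 0.13. Pebp1 and Pea15a were the most abundant per kilobase, at 4937 and 2972 normalized counts.

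Transcripts that ERK is known to induce were listed separately, and 32 were tested. In PS animals 5 rose and 3 fell, in AS 3 rose and 4 fell, and in control animals 0 rose and 4 fell. Over all 14074 genes, 386 rose and 369 fell in PS, 537 and 697 in AS, and 567 and 346 in control animals. Against that share of rises in control, 0 of 32 says little about this list. By edgeR and DESeq2 0 of the 32 rose in control animals too, and 2 had a positive value with an unadjusted limma p under 0.05. The 5 that rose in PS were Arc, Junb, Ier2, Nr4a1 and Etv5, the last 2 named after their values were seen. Arc, which encodes a synaptic protein of the activity response, was 833 ± 157 normalized counts in PS saline and 2068 ± 166 in PS DEX (mean ± SD, n = 4 each). That rise was 1.33 on the log2 scale (limma, Benjamini-Hochberg adjusted p = 0.000230). Arc also rose by 0.79 in AS, and its value in control animals was 0.37 (adjusted p = 0.413). Junb rose in PS by 0.58 (adjusted p = 0.0873), Ier2 by 0.54 (adjusted p = 0.0300), Nr4a1 by 0.47 (adjusted p = 0.0255) and Etv5 by 0.30 (adjusted p = 0.0603). In control animals these 4 gave 0.02, -0.06, 0.07 and -0.11. In AS animals Etv5 rose by 0.26 (limma adjusted p = 0.0919), whereas Junb, Ier2 and Nr4a1, at 0.23, 0.18 and 0.09, did not pass (adjusted p = 0.587, 0.581 and 0.781). Fos and Egr1 did not pass in PS, at 0.63 and 0.33 (adjusted p = 0.391 and 0.245), and their groups overlapped: Fos reached 216 normalized counts in PS saline and began at 211 in PS DEX. The difference of the response between PS and control was 0.96 for Arc and 0.60 for Ier2, and neither passed over all genes (limma adjusted p = 0.367 for both).

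Of the 32 transcripts, 3 fell in PS. Etv4 fell by 0.62 in PS, Ccnd1, a cyclin of the cell cycle, fell by 0.50, and Bdnf fell by 0.49. Etv4, Ccnd1 and Bdnf fell in control and AS animals as well. Jun rose by 0.28 in the mean response. Vgf and Plk2, the most abundant of the list at 3338 and 1235 normalized counts per kilobase, were not called in PS. Without the 4 libraries high in olfactory bulb markers, 1 of the 32 rose in PS, Arc at 1.20 (limma adjusted p = 0.00967), and 3 fell. The log2 changes of Junb, Ier2, Nr4a1 and Etv5 were then 0.53, 0.47, 0.47 and 0.32, none past the threshold, in a fit where 2.95% of all genes were called in place of 5.36%.

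**Figure D4:**
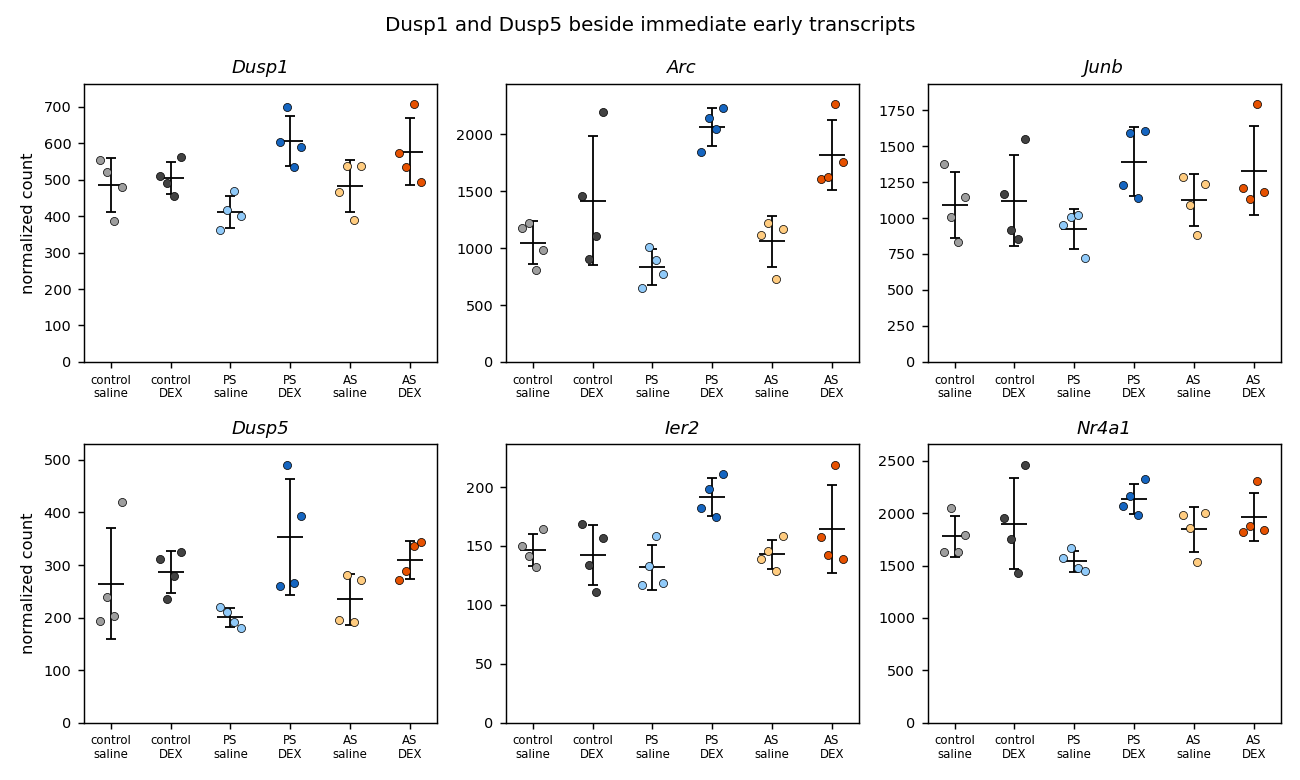
Normalized counts (vertical axes, from 0) of Dusp1 and Dusp5 beside 4 immediate early transcripts chosen among the 5 that rose in PS, by group. Points are single mice and bars are mean ± SD over 4 mice. In all 6 panels the 4 PS DEX mice lie above the 4 PS saline mice, and in the control groups the points overlap. All 6 are shown because they rose in PS, so this split carries no test. Over all genes the PS groups did not overlap for 10.1%, and those of Fos and Egr1, not shown, overlapped.

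**Figure D5:**
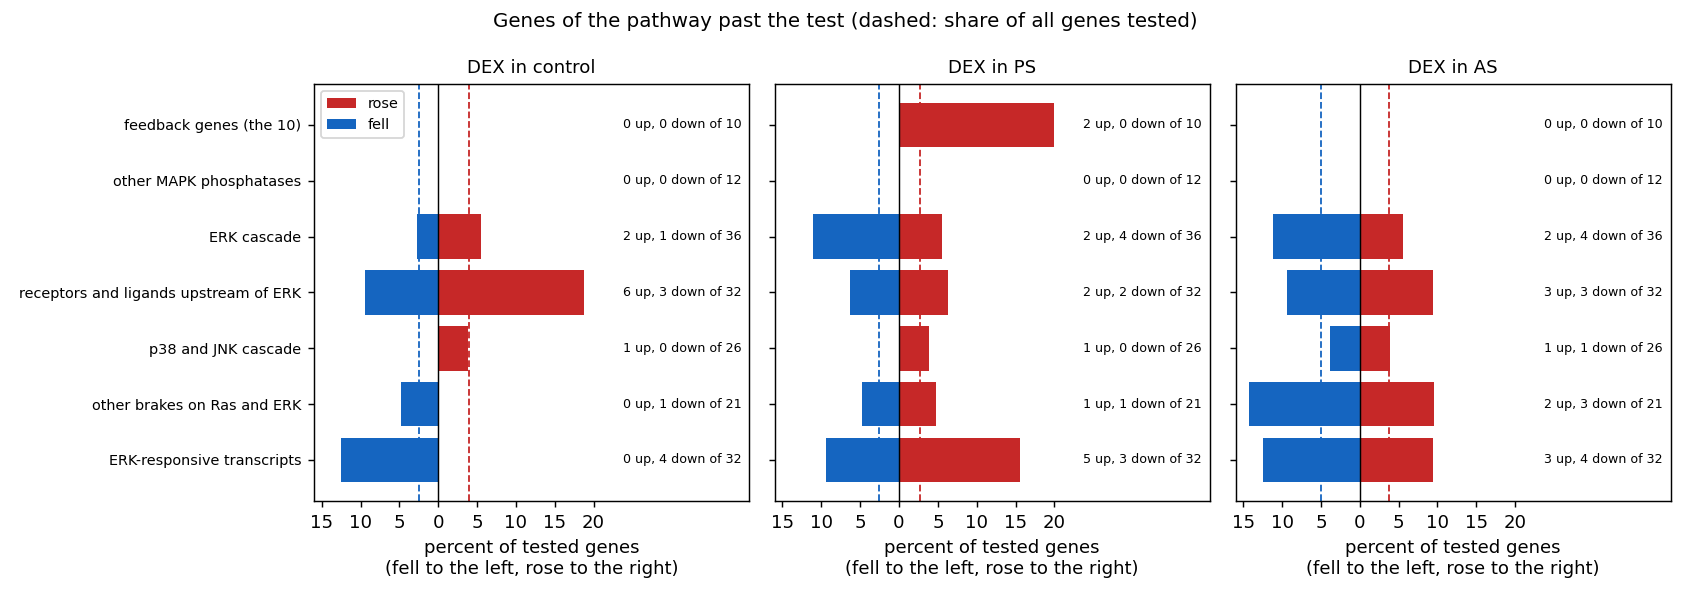
Share of the tested genes of each list that rose (right, red) or fell (left, blue) with DEX in each phenotype, with the counts printed beside the bars. Dashed lines give the shares over all 14074 genes. The list of other MAPK phosphatases also holds Spry3 and Spred3 and has no bar in any phenotype.

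Likeness to other transcripts was described by Pearson's r of log2 values over the 24 libraries, which share treatment, phenotype and depth, so that r carries no test. The 2 named genes most like Dusp1 were the immediate early gene Csrnp1 (r = 0.89, and 0.80 after each group was centred on its mean) and Arc (r = 0.87, and 0.71 centred). Dusp5 was most like Grb2, the adaptor that links receptors to Sos (r = 0.87), and Tox2 (r = 0.86). Dusp4 was nearest to Fosl2 and Gse1 (r = 0.71 and 0.68), and Dusp6 to Actr8 and Dus1l (both 0.68). Dusp8 was close to Mvb12b (r = 0.90) and to Map3k10 (r = 0.87), a kinase of the JNK cascade. Spry1 was nearest to Top3a and Slc25a39 (0.72 and 0.70), Spry2 to Nt5m and Cwh43 (0.81 and 0.73), and Spry4 to Naif1 and Nectin1 (0.68 and 0.63). Spred1 was nearest to Wdr26 and Psd3 (0.87 and 0.86), and Spred2 to Ep300 and Zdhhc5 (0.84 and 0.83). Within the family, Dusp1 and Dusp5 had the highest r, 0.66, which was 0.35 after centring. After centring, Spred1 and Spred2 had the highest r (0.78, and 0.51 uncentred), followed by Dusp6 with Spry2 (0.55) and Dusp1 with Spry2 (0.53), and Spry1 with Spred2 had the lowest (-0.60).

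Markers of other cell types moved with DEX in PS, AS and control animals. Of 9 microglial markers, 3 fell in PS, Aif1 by 0.90, Cx3cr1 by 0.83 and P2ry12 by 0.69. The summed microglial count was 12398, 12176, 11769 and 11531 in PS saline mice and 10297, 11322, 10140 and 10584 in PS DEX mice, without overlap. Of 10 endothelial markers 1 fell, Tek by 0.78, and the summed count was 7416 ± 1122 in PS saline and 6328 ± 1975 in PS DEX, lowest in PS DEX mouse 34 at 3887. Of 8 oligodendrocyte markers 0 were called in PS by limma or edgeR and 1 by DESeq2, with 2 at an unadjusted limma p under 0.05, and their sum, led by Mbp, was 30435 ± 4759 in PS saline and 35612 ± 4090 in PS DEX. Of 9 pyramidal and 8 GABAergic markers 0 were called in PS by limma, edgeR or DESeq2, with 4 and 1 at an unadjusted limma p under 0.05. The pyramidal sum, led by Camk2a, was 187945 ± 11553 in PS saline and 183974 ± 7083 in PS DEX. Of 9 astrocyte markers, Gjb6 (0.55) and Aldh1l1 (0.34) rose and Aqp4 (-0.53) fell, and of 8 markers of oligodendrocyte precursors, Neu4 (0.57) rose and Cspg5 (-0.22) fell. The lists of 8 mural, 7 leptomeningeal, 5 blood, 5 olfactory bulb and 13 mitochondrially encoded genes and the single choroid plexus gene in the table gave 0 calls in PS by limma, edgeR or DESeq2, where 1, 5, 3, 0, 1 and 0 had an unadjusted limma p under 0.05. In AS animals 5 of the 10 endothelial, 4 of the 8 mural and 3 of the 9 microglial markers fell, and 2 oligodendrocyte, 2 pyramidal and 2 GABAergic markers rose. The endothelial sum was 7759 ± 1625 in AS saline and 5007 ± 1158 in AS DEX, and the mural sum was 7102 ± 1795 and 4521 ± 468. The microglial sum did not overlap in AS either, at 12534 to 13231 with saline and 10084 to 12150 with DEX. In control animals 3 precursor markers rose and 2 fell, 1 microglial marker rose and 2 fell, and 2 oligodendrocyte markers fell. Also in control, 2 astrocyte, 1 GABAergic and 1 leptomeningeal marker rose, and 1 pyramidal marker and 2 mitochondrially encoded genes fell. In the mean response 4 endothelial, 2 mural and 3 microglial markers fell. The part of these markers in the changes of Dusp1 and Dusp5 was not tested.

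Overlapping gene models were checked, since the strand setting of the counting is not given in the sources used here, although the libraries were made with a directional kit. Of the 3311 exon bases of Dusp1, 11 are shared with Ergic1 on the opposite strand. Ergic1 was 3464 ± 112 normalized counts in PS saline and 3412 ± 198 in PS DEX (limma, log2 difference -0.02, adjusted p = 0.931). Of the 2473 exon bases of Dusp5, 547 are shared with the antisense gene AC137853.2, which was 17.4 ± 3.92 normalized counts in PS saline and 31.5 ± 9.31 in PS DEX. Its log2 difference in PS was 0.79 (limma adjusted p = 0.155), and in the mean response it rose by 0.56 (adjusted p = 0.0247). Without the strand setting, reads from Dusp5 and from this partner cannot be told apart in the shared part. Spry1 shares 710 of its 2906 exon bases with Gm42922 and Dusp8 shares 66 of 4870 with Gm32786, both on the opposite strand and not analysed here. The same limit holds for them.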

How the data were processed

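The study sequenced poly(A) RNA of the PFC from 24 mice. Per the labels and its methods, reads were trimmed with fastp 0.20.1, aligned to mm10 (GRCm38) with HISAT2 2.2.1 and assigned to genes with featureCounts of Subread 2.0. In the deposited table the unit is a signal, read counts per gene scaled by the authors with 1 DESeq2 size factor for each library. Files of the authors' own fold changes and p-values were not used.

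Each value was a whole multiple of 1 read within 0.01 read for 100% of values, so reads were recovered for depth and count models. Limma 3.58.1 (R 4.3.3, trend) was fitted to log2(value + 1) over 14074 genes with 6 group means and 10 comparisons, Benjamini-Hochberg adjusted over all genes at 0.1. The planned set was the genes the authors tested. Here the whole table was tested, and their stated minimum of 10 reads in each sample, which left 13161 genes, was run as an alternative. Alternatives were edgeR 4.0.16, DESeq2 1.42.0, other scalings and filters, and each library left out. The fits were tested on simulated data. Named genes were the 10 members, the DEX label genes, the 2 most abundant per list, up to 3 called each way and the 2 most alike by Pearson's r, and some of these genes are not reported here. Members and lists were chosen with earlier results of these data known. Exon lengths and overlaps came from GENCODE annotation of GRCm38. Each library came from its own mouse, and no processing batch is given in the sources used here.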

Additional observations from a re-analysis of the deposited data

Results flagged for a closer look

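In 3 of 60 sets of 4 mice (10 transcripts in 6 groups), a single mouse stood far from the other 3 of its group by Dixon's ratio. Chance flags about 1 in 20 groups, which is 5% and as many as were found. The value of Dusp6 in PS DEX mouse 56 was 1807 normalized counts, above 1624 to 1655 in the others. For Spry1, PS saline mouse 68 had 179 normalized counts, where the others had 167 to 168. For Spred1, PS saline mouse 62 had 4685 normalized counts, below 5627 to 5812 in the others.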

How the results depend on the processing

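The counts of called members kept within 1.5 times of the reported count under a pseudocount of 8, a mean of at least 100 normalized counts, at least 10 reads in each library, quantile scaling, TMM scaling, only the groups compared, library size as a covariate, edgeR and DESeq2. Testing all genes in the table was already the reported fit. The filter on reads and the fit without the 4 libraries highest in olfactory bulb markers were chosen after seeing the data. In the latter, 1 member was called with DEX in PS (Dusp5, since Dusp1 was at 0.43) and 1 in AS (Dusp5), and Dusp5 in AS against control turned from -0.12 to 0.032. Without single libraries, the count in PS ran from 1 to 2. Uncalled values near 0 that turned were Dusp1 with DEX in control (-0.040 to 0.13), Dusp1 in AS against control (-0.11 to 0.093), Dusp5 in AS against control (-0.24 to 0.13) and Dusp5 in the difference of DEX responses between AS and control (-0.016 to 0.35). Of 2576 recomputed values of other members, 122 changed sign and 0 were called. The causes were not tested. No paired analysis was possible because mouse numbers do not recur between groups. With 4 mice a group, 95% intervals reached 0.14 to 0.43 to each side for differences between groups, 0.080 to 0.25 for the mean DEX response and 0.20 to 0.61 for differences between responses, and changes within these limits could not be told from 0.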
